A study of Mus musculus with 2 samples.

Results

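Cells burn or ferment glucose in a fixed order of reactions, and the mRNAs of 10 proteins of that route were followed here in Dicer_KO mouse embryonic stem cells (mESCs). The genes were Slc2a1 and Slc2a3, which encode the glucose transporters GLUT1 and GLUT3 of the plasma membrane, and Hk1, Hk2, Pfkl, Pfkp, Aldoa, Eno1, Pkm and Ldha, which encode enzymes from hexokinase to lactate dehydrogenase. They were taken by name, with the symbols matched to Ensembl gene identifiers, and all 10 were found among the 43629 genes listed for each library. Glucose enters through the transporters, hexokinase traps it as glucose 6-phosphate, phosphofructokinase makes the committed step, aldolase splits the sugar, enolase and pyruvate kinase lead to pyruvate, and lactate dehydrogenase turns pyruvate into lactate while returning NAD+. Pluripotent cells are known for a high flux through this route. Most steps have several genes for the same reaction, so both the level of each gene and its share of the step can be described.

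The data were 2 libraries of polyA RNA from mESCs with a knockout of Dicer1, the gene of the RNase III enzyme that releases mature miRNAs from their precursors. Replicate 1 was taken at passage 7 and replicate 2 at passage 4, and both had the same genotype label and the 129/Ola background, with no treatment given. The cells derive from E14TG2a, a line from the blastocyst kept in serum with LIF, and the study made lines with different deletions in Dicer1 with paired Cas9 cuts, each grown from a single sorted cell. The labels do not say which deletion each library carries, so that clone, deletion, passage and library cannot be told apart, and no WT library was analysed here. With 1 library per passage no test was possible. The difference between the libraries is at once the spread of the group, and p-values are not given.

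Depth was nearly equal, with 41710122 counts on genes in replicate 1 and 41566184 in replicate 2, and a gene with 3 counts would stand at 0.0719 and 0.0722 CPM, counts scaled to the total of the library. Dicer1 itself kept 1343 counts in replicate 1 and 1510 in replicate 2 over all its exons, which without WT libraries is no check of the knockout. Markers of mESCs were abundant, summing to 9477 CPM in replicate 1 and 6030 CPM in replicate 2, and 8 of 8 had a mean of at least 10 counts. After scaling, 5 of the 8 were higher in replicate 1, against 51.3% of all genes. The other 3 were lower, among them Pou5f1 with 39069 and 43025 counts. Dppa5a, with 199860 and 84835 counts, was the 1 of 8 beyond 2-fold, against 21.4% of all genes. Among 7 fibroblast markers, Postn was at 0 counts in both libraries, Col3a1 at 1 and 0, and the summed level was 20.4 and 15.9 CPM, most of it from Thy1. Primitive endoderm markers summed to 46.8 and 50.8 CPM, most of it from Lama1 (28.7 and 40.2 CPM). Of the 6 with a mean count of 10 or more, 4 were higher in replicate 1, against 51.3% of all genes, and 2 lower. Gata6 (16 and 5 counts) and Dab2 (52 and 17) were the 2 beyond 2-fold and higher in replicate 1, against 14.2% of all genes. Markers of trophectoderm, the outer layer of the blastocyst, summed to 373 CPM in replicate 1 and 58.1 CPM in replicate 2, and 4 of the 4 with a mean count of 10 or more were over 2-fold higher in replicate 1, against 14.2% of all genes. Krt8 (8004 and 1370 counts) and Krt18 (7162 and 880 counts) carried most of that sum. Both lie on chromosome 15, where most genes were higher in replicate 1. Elf5 had 70 and 11 counts, and Cdx2, the marker below a mean of 10, had 6 and 1. In bulk RNA, fewer cells of a type and less RNA per cell cannot be told apart. Whether cells of these other types were present, and their part in the values that follow, was not tested.

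Because Dicer1 makes the mature miRNAs, the sequences that tie the 10 genes to the best-known miRNAs of mESCs are shown first. The miR-290 and miR-302 families share a seed, the bases 2 to 8 of the mature miRNA that pair with an mRNA, and RefSeq (GRCm38.p6) gives the following members of these families and miR-16-5p, with the seed in capitals.

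miR-291a-3p: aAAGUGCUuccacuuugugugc
miR-294-3p: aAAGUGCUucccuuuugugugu
miR-295-3p: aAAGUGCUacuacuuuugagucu
miR-302b-3p: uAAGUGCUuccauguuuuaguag
miR-302d-3p: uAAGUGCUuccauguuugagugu
miR-16-5p: uAGCAGCAcguaaauauuggcg

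The letters that pair with the shared seed, AGCACTT on the mRNA strand, were looked for in the 3′ UTR of the longest coding transcript of each gene in GENCODE M21 (GRCm38). They were found once each in Hk1, Ldha and Pfkp, 3 of the 10 genes, and in 14.5% of the 20637 3′ UTRs searched. The stretches are printed on the mRNA strand with the match in capitals. They lie at chr10:62268961-62268989 on the minus strand for Hk1, chr7:46855148-46855176 on the plus strand for Ldha and chr13:6581363-6581391 on the minus strand for Pfkp, beginning 931, 18 and 80 bases after the stop codon for the first base of the match.

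Hk1: cctatagtcccAGCACTTgggaaatggag
Ldha: ccccgtgtcctAGCACTTcactgtccagg
Pfkp: agttatttatcAGCACTTtatggaagcaa

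None of the 3 matches was followed by an A, unlike the matches in Pfkp and Slc2a3 to the miR-16 seed described next. The match to the miR-16 seed, TGCTGCT, stood in 6 of the 10 genes (Slc2a1, Slc2a3, Hk2, Pfkl, Pfkp and Aldoa, with a pair of matches in Pfkl) and in 20.2% of all 3′ UTRs. These UTRs ran from 183 bases in Aldoa to 2285 bases in Hk2, against a median of 942 bases over all genes. A match of letters is a description and not a site in use, and no library with Dicer1 was at hand to compare these genes with.

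Per length, the genes of aldolase, pyruvate kinase and lactate dehydrogenase were the most abundant of the 10 in both libraries, and Hk1 was the least. Levels between genes are given as TPM, the transcript count per length scaled to the same sum in each library, computed from the counts and the summed length of all annotated exons of a gene. By the mean of the libraries, Pkm, Aldoa and Ldha were at the top, Eno1, Slc2a3 and Slc2a1 came next, Hk2, Pfkp and Pfkl followed, and Hk1 was the lowest. In both libraries 7 of the 10 genes were at 100 TPM or more, a level reached by 6.25% of 21551 protein-coding genes in replicate 1 and by 6.51% in replicate 2. Summed, the 10 genes held 3392 TPM in replicate 1 and 4275 TPM in replicate 2. As a share of all counts they took 0.533% (95% Clopper-Pearson interval 0.531 to 0.535) and 0.645% (0.643 to 0.647), where the intervals, here and throughout, cover counting error only.

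**Figure D1:**
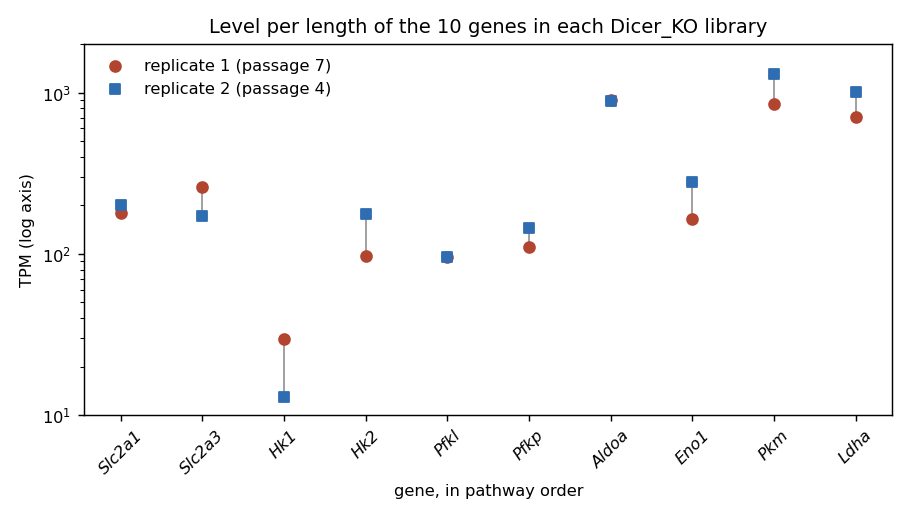
Level per length (TPM, log axis) of the 10 genes in pathway order, with a circle for replicate 1, a square for replicate 2 and a line joining them. Pkm, Aldoa and Ldha lay between 702 and 1297 TPM, and Hk1 lay lowest, at 29.6 and 13.03 TPM.

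Between neighbours in this order, most steps were smaller than the spread of the libraries. Pkm and Aldoa, Aldoa and Ldha, Eno1 and Slc2a3, Slc2a3 and Slc2a1, and Hk2 and Pfkp had overlapping ranges, so their order is not resolved. Without overlap, Ldha was above Eno1, Slc2a1 above Hk2, Pfkp above Pfkl and Pfkl above Hk1. The order depends on the gene models. With the longest transcript in place of all exons, Eno1 was at 356 and 602 TPM, and Pfkl and Pfkp were side by side in replicate 1 at 139.6 and 139.5 TPM.

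The difference between the libraries was taken as the log2 ratio of replicate 1 over replicate 2, after scaling the libraries with the TMM method of edgeR and adding a pseudocount of 1, so that a negative value means a higher level in replicate 2. Most of the 10 genes were lower in replicate 1, with Hk1 and Slc2a3 as the exceptions. A ratio above 0 was found for 2 of 10 genes, against 51.3% of all genes and 41.2% of the highly counted ones. The ratio was below 0 for 8 of 10 genes, against 48.7% of the 17788 genes with a mean count of 10 or more and 58.8% of the 7401 genes whose mean count was 1000 or more, where all 10 genes lie. Scaling by total counts left 6 of 10 below 0, since Pfkl and Aldoa then passed to the other side. It also moved the median of all genes up by 0.12, and since a scaling shifts all ratios alike, 8 of 10 genes lay below that median whichever scaling was used, by construction. The median of the 10 ratios was -0.33, against 0.02 over all genes with a mean count of 10 or more and -0.09 over the 7401 highly counted ones. Only Hk1 was beyond 2-fold, 1 of 10 genes, where 21.4% of all genes and 6.78% of the highly counted ones were (4.00% higher in replicate 1 and 2.78% higher in replicate 2). Ratios beyond 0.5 in size were found in 6 of the 10 genes, against 45.8% of all genes and 29.2% of the highly counted ones. No 4-fold difference was seen among the 10 genes, and such differences were found for 5.71% of all genes and 0.784% of the highly counted ones. For all 10 genes the counting interval of the ratio left out 0, so that under this scaling each difference was larger than the counting error, yet whether cultures of one clone differ as much could not be tested.

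**Figure D2:**
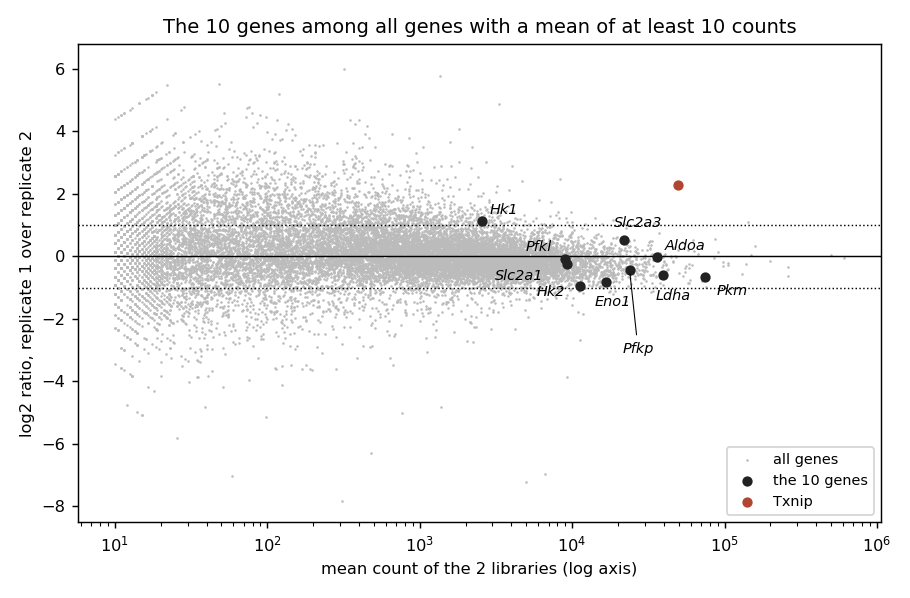
Log2 ratio of replicate 1 over replicate 2 against the mean count of the libraries (log axis) for the 17788 genes whose mean count was 10 or more (small points), with the 10 genes as large black points and Txnip as a red point. The 10 genes lay at mean counts of 2564 to 74806, and Hk1 was the only one outside the dotted 2-fold lines.

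The glucose transporters pointed in opposite directions. Slc2a1 (ENSMUSG00000028645, GRCm38 chromosome 4, 119108711 to 119137983, plus strand) encodes GLUT1, the transporter found in most proliferating cells. It had 8910 counts in replicate 1 and 9641 in replicate 2, or 178 and 201 TPM, with a mean of 190 ± 16.3 TPM (SD, n = 2, as for the other genes). Its log2 ratio was -0.24 (95% counting interval -0.28 to -0.19), which lay between the quartiles of all genes. Slc2a3 (ENSMUSG00000003153, chromosome 6, 122727809 to 122801640, minus strand) encodes GLUT3, a transporter of high affinity best known from neurons and early embryos. Its 26976 counts in replicate 1 and 17120 in replicate 2 correspond to 261 and 173 TPM (mean 217 ± 62.2), and its log2 ratio was 0.53 (0.51 to 0.56). Slc2a3 was thus one of the 2 genes that were higher in replicate 1. Per length it made up 59.4% of the sum of both transporters in replicate 1 and 46.2% in replicate 2, so that per length the leading transporter differed between the libraries. Counted as reads, without length, Slc2a3 led in both, with 75.2% (74.7 to 75.6) and 64.0% (63.4 to 64.5). The summed counts of the pair were higher in replicate 1 by a log2 ratio of 0.30 (0.28 to 0.32).

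At the hexokinase step, the differences of the 2 genes were the widest of the 10 and of opposite sign. Hk2 (ENSMUSG00000000628, chromosome 6, 82725025 to 82774454, minus strand) encodes the inducible hexokinase of growing cells and tumours. It had 8226 counts in replicate 1 and 14387 in replicate 2, which gave 96.5 and 176 TPM (mean 136 ± 56.4) and a log2 ratio of -0.93 (-0.97 to -0.89), the most negative of the set. Replicate 2 thus held 1.90 times the normalized count of replicate 1. Hk1 (ENSMUSG00000037012, chromosome 10, 62268855 to 62379908, minus strand) encodes the hexokinase found in most adult tissues and at high levels in brain. Its counts were 3608 in replicate 1 and 1520 in replicate 2, or 29.6 and 13.03 TPM (mean 21.3 ± 11.7), with a log2 ratio of 1.12 (1.04 to 1.21), a 2.18-fold higher level in replicate 1. Hk2 was the main hexokinase in both libraries, but its share per length was 76.5% in replicate 1 and 93.1% in replicate 2. Counted as reads, without length, Hk2 had 69.5% of both genes (68.7 to 70.3) in replicate 1 and 90.4% (90.0 to 90.9) in replicate 2. The higher Hk1 of replicate 1 did not balance its lower Hk2, since the sum of both was 126 TPM in replicate 1 and 189 TPM in replicate 2. Hk3 and Hkdc1 had at most 7 counts in either library.

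Phosphofructokinase works as a tetramer of liver (Pfkl), platelet (Pfkp) and muscle (Pfkm) subunits, and the subunits differed in direction between the libraries. Pfkl (ENSMUSG00000020277, chromosome 10, 77986947 to 78010083, minus strand) had 9139 counts in replicate 1 and 8783 in replicate 2. Both libraries stood at the same level, 95.9 and 96.2 TPM (mean 96.1 ± 0.227), and the log2 ratio of -0.06 (-0.11 to -0.02) turned to 0.05 with scaling by total counts. Pfkp (ENSMUSG00000021196, chromosome 13, 6579768 to 6648777, minus strand) was lower in replicate 1, with 21258 counts against 26369, which is 111 against 144 TPM (mean 127 ± 23.2) and a log2 ratio of -0.43 (-0.46 to -0.41). The third subunit, Pfkm, was higher in replicate 1, with 4754 counts against 2967 and a log2 ratio of 0.56 (0.49 to 0.62). Pfkm lies on chromosome 15, where the median ratio of 683 genes was 0.59, against 0.01 over 16200 genes of the other autosomes, and the part of that chromosome in the value of Pfkm was not tested. Per length, Pfkl made up 31.3% and 31.5% of the subunits, Pfkp 36.2% and 47.2%, and Pfkm 32.5% and 21.3% in replicates 1 and 2. The sum of the subunits was 307 TPM in replicate 1 and 305 TPM in replicate 2, while their summed counts had a log2 ratio of -0.24 (-0.26 to -0.22).

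**Figure D3:**
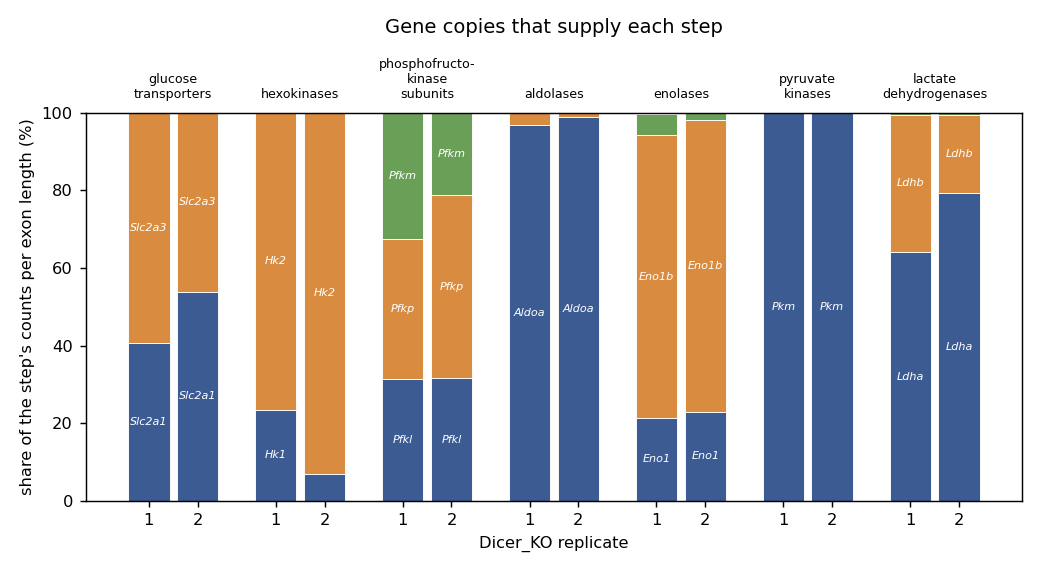
Share of each gene in the summed counts per exon length of its step (%), for replicates 1 and 2 of Dicer_KO mESCs. The unlabelled segments are Hk1 in replicate 2 for hexokinases and Aldoc for aldolases. Also unlabelled are Eno3 and the thin Eno2 for enolases and the thin Pklr and Ldhc for the last steps. The shares of Hk2 (76.5% and 93.1%) and Ldha (64.0% and 79.4%) were lower in replicate 1, and those of Aldoa and Pkm were at 96.9% or more in both libraries.

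The main aldolase was almost equal in both libraries. Aldoa (ENSMUSG00000030695, chromosome 7, 126795234 to 126800751, minus strand) encodes the aldolase of muscle and of most other tissues. It had 37411 counts in replicate 1 and 35098 in replicate 2, or 900.1 and 882 TPM, a mean of 891 ± 13.1 TPM (SD, n = 2). The log2 ratio was -0.03 (-0.05 to -0.01), and scaling by total counts gave 0.09, so that no direction can be given. Aldoa made up 96.9% and 98.8% of the aldolases per length. Aldoc, the aldolase of brain, had a small share, with 1344 counts in replicate 1 and 488 in replicate 2 and a log2 ratio of 1.34 (1.19 to 1.49).

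Enolase is the step for which the counts are least certain. Eno1 (ENSMUSG00000063524, chromosome 4, 150236721 to 150248879, plus strand) had 12655 counts in replicate 1 and 20575 in replicate 2, which is 165 and 280 TPM (mean 222 ± 81.3) and a log2 ratio of -0.82 (-0.86 to -0.79). Eno1b, a copy on chromosome 18 annotated as protein coding, had 15015 and 23607 counts and a ratio of -0.77 (-0.80 to -0.75). To see how far reads could be told apart, all stretches of 50 bases of each gene's transcripts were compared with those of all other genes, and Eno1 shared 26.0% of its stretches and Eno1b 84.0%, mostly with each other. The study let reads align to many places, and how such reads were counted is not stated, so that the split of reads between Eno1 and Eno1b is uncertain. Summed, the pair had 27670 counts in replicate 1 and 44182 in replicate 2, and a log2 ratio of -0.80 (-0.82 to -0.78), near that of Eno1 alone. Eno3, the enolase of muscle, had 1067 and 496 counts (log2 ratio 0.98, 0.83 to 1.14), and Eno2, the enolase of neurons, had 142 and 65 (1.00, 0.57 to 1.45). The abundant enolase genes were thus higher in replicate 2 and the tissue-restricted Eno2 and Eno3 higher in replicate 1.

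The genes of the last steps were abundant, and both were lower in replicate 1. Pkm (ENSMUSG00000032294, chromosome 9, 59656368 to 59679375, plus strand) encodes the muscle and embryonic forms of pyruvate kinase, which differ by alternative exons that counts per gene do not separate. It had the highest count of the 10 genes, 60888 in replicate 1 and 88723 in replicate 2, or 853 and 1297 TPM (mean 1075 ± 314). Its log2 ratio was -0.67 (-0.68 to -0.65), so that replicate 2 held 1.59 times the normalized count of replicate 1. Pklr, the pyruvate kinase of liver and red blood cells, had 82 and 23 counts and a ratio of 1.67 (1.03 to 2.45), but it made up only 0.208% and 0.0400% of the step per length. Ldha (ENSMUSG00000063229, chromosome 7, 46841475 to 46855627, plus strand) encodes the subunit of lactate dehydrogenase that prevails in cells with high lactate output. It had 33181 counts in replicate 1 and 45867 in replicate 2, with 702 and 1013 TPM (mean 858 ± 220.0) and a log2 ratio of -0.59 (-0.61 to -0.57). Ldhb, the subunit typical of heart, showed the opposite sign, with 8727 and 5466 counts and a ratio of 0.55 (0.50 to 0.60). The share of Ldha in the lactate dehydrogenases per length was therefore lower in replicate 1, at 64.0%, than in replicate 2, at 79.4%. The sum of Ldha and Ldhb was still lower in replicate 1, with a log2 ratio of -0.41 (-0.43 to -0.40).

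The following was seen only after the values were known. The gene with the larger share of the step was lower and the other higher in replicate 1 for hexokinase (Hk2 and Hk1), lactate dehydrogenase (Ldha and Ldhb) and pyruvate kinase (Pkm and Pklr). The transporters did not follow this, since Slc2a3, with more counts than Slc2a1, was the one higher in replicate 1. Other genes did not either. Ldhc, with a small share of its step, was lower (-0.67), and Eno1 and Eno1b were both lower. Pfkl (-0.06) and Aldoa (-0.03) had no clear direction, while Pfkp was lower and Pfkm, Aldoc, Eno2 and Eno3 were higher. Over all genes, 14.2% were beyond 2-fold and higher in replicate 1, and 4.00% of the highly counted ones, a class that includes Hk1 and Ldhb but not Pklr. Whether these pairs differ from other genes was not tested.

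Apart from the 10, 23 further glycolysis genes were listed, and 18 had a mean of at least 10 counts. Of these, 4 were beyond 2-fold and higher in replicate 1, among them Aldoc, Pklr and Pgam2, and 0 beyond 2-fold and higher in replicate 2, where 14.2% and 7.14% of all genes were. Pgam2, the phosphoglycerate mutase of muscle, had 265 and 96 counts and a ratio of 1.33 (1.00 to 1.69). Of the single main genes of the middle steps, Gpi1, the glucose phosphate isomerase, had 15546 and 12732 counts and a ratio of 0.17 (0.13 to 0.20), and Tpi1, the triose phosphate isomerase, had 16596 and 18714 counts and a ratio of -0.30 (-0.33 to -0.27). Gapdh, the glyceraldehyde phosphate dehydrogenase that is often used for normalization, had only 1329 and 1778 counts, or 22.5 and 31.5 TPM, far below its neighbours in the route. It shared 50-base stretches with 192 annotated pseudogenes, and 25.1% of its own stretches were shared, so that its count and ratio (-0.54, -0.65 to -0.44) are uncertain. The same holds for Pgk1, the phosphoglycerate kinase (2791 and 2305 counts, ratio 0.15, 53.9% shared), and for Pgam1, the main phosphoglycerate mutase (2439 and 3087 counts, ratio -0.46, 36.2% shared). Of the 10 genes, 9 shared under 10% of their stretches, with 6.24% for Ldha, which has 13 such pseudogenes, and 5.10% for Pfkp, which overlaps Pitrm1. Ratios of Adpgk, which uses ADP to phosphorylate glucose (-0.23), and Bpgm, the bisphosphoglycerate mutase (0.05), were small, and those of Ldhc, the testis form of lactate dehydrogenase (-0.67), and Eno4 (-0.78) rested on at most 185 counts in a library. The median ratio of the 18 genes was 0.16, and it was -0.23 for the highly counted ones among them.

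**Figure D4:**
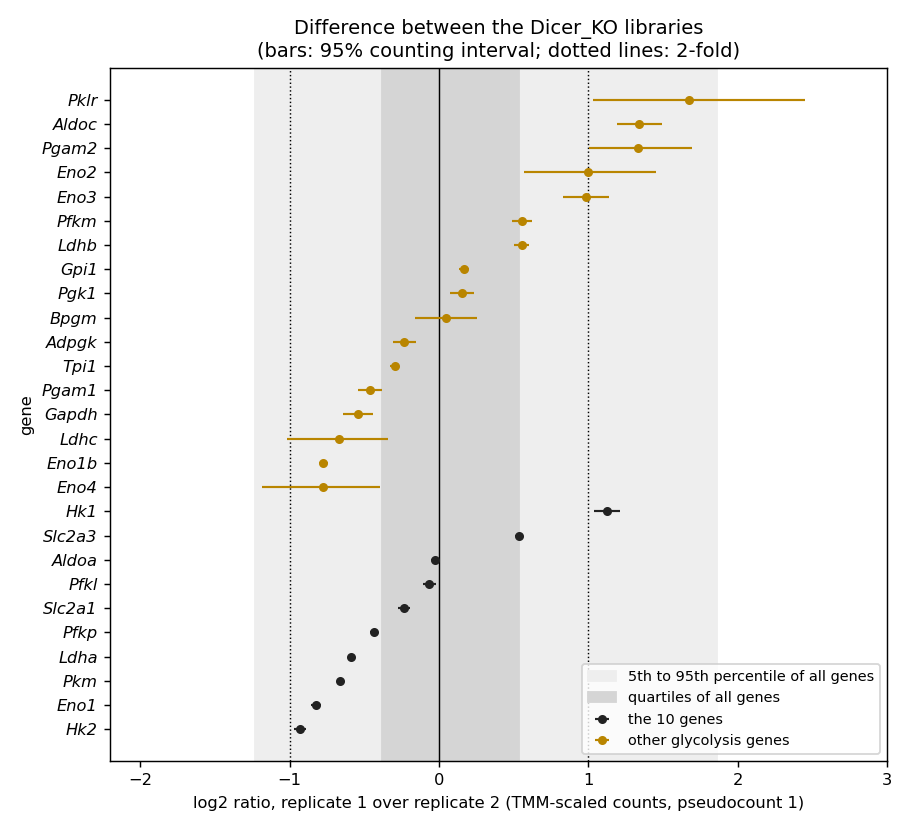
Log2 ratio of replicate 1 over replicate 2 with its 95% counting interval for the 10 genes (black) and the other glycolysis genes with a mean count of 10 or more that are reported by name (ochre), over the quartiles and the 5th to 95th percentiles of all genes (grey bands). Hk1 at 1.12 and Hk2 at -0.93 mark the ends of the 10 genes, and Aldoc, Pklr and Pgam2 lay beyond the 2-fold line on the side of replicate 1.

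Among regulators of glucose use, Txnip and Myc differed widely and in opposite directions. Txnip, a protein induced by glucose that limits its uptake through GLUT1, had 82845 counts in replicate 1 and 15545 in replicate 2, or 1858 and 364 TPM. Its log2 ratio of 2.29 (2.27 to 2.32) was over 2-fold, and its level in replicate 1 was above that of each of the 10 genes. Myc, a factor that activates glycolysis genes in many cell types, had 128 and 569 counts and a ratio of -2.27 (-2.56 to -1.9955), although it lies on chromosome 15, where most genes had positive ratios. These were the 2 of 15 listed regulators beyond 2-fold, against 21.4% of all genes, and the median of the list was -0.03. Other members of these families, chosen after their values were seen, were less far apart. Mycn, the MYC family member with the highest level here, had 5291 and 7874 counts and a ratio of -0.70 (-0.75 to -0.65). The hypoxia factors Hif1a (5727 and 7096 counts, ratio -0.43) and Epas1 (6016 and 8417 counts, ratio -0.61) were also lower in replicate 1. Mycl went the other way (380 and 266 counts, ratio 0.39). Of the 15 regulators, 7 had a ratio above 0 and 8 below 0, against 51.3% and 48.7% of all genes.

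Most genes known as targets of the hypoxia factors were higher in replicate 1, as Hk1 and Slc2a3 were, and unlike the other 8 of the 10 genes. Of 16 such genes outside glycolysis, 15 had a ratio above 0, against 51.3% of all genes, and 6 were beyond 2-fold and higher in replicate 1, against 14.2%. Vegfa, the growth factor for blood vessels, had 5186 and 1133 counts (ratio 2.07), and Ddit4, an inhibitor of mTORC1 signalling induced by stress, had 4545 and 1192 (1.81). Car12, a carbonic anhydrase, had 1110 and 208 counts (2.29), Bnip3, a receptor for mitophagy, had 4181 and 1784 (1.11), and Ankrd37 had 184 and 71 (1.24). Kdm3a, a histone demethylase and the target with the highest mean level per length, was the exception with 10792 and 18449 counts (-0.90). The median of the list was 0.68. Several of the 10 genes are themselves known targets of these factors, and the 10 ratios ran from -0.93 to 1.12.

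Promoters of the 10 genes were read to show which of them hold the core letters that these factors bind. Of the 10, 9 had an entry in the RefSeq promoter table (GRCm38.p6), which gives 300 bases around each start of transcription, most of them upstream, and Slc2a3 had none. The core of the hypoxia response element is written as ACGTG or GCGTG, and MYC binds CACGTG, which contains ACGTG on both strands. With both strands searched, ACGTG or GCGTG was found in 9 of 9 genes, against 46.7% of 27025 genes in the table. ACGTG alone was in 6 of 9 (21.8% of genes), GCGTG in 6 of 9 (35.2% of genes) and CACGTG in Ldha only (8.09% of genes). A gene was counted if any of its promoters matched, and Aldoa and Eno1 had 3 promoters each. Neither the number of promoters nor the base composition was matched to all genes, so these shares are no measure of enrichment. The promoters of Ldha (chr7:46845554-46845853, plus strand), Hk2 (chr6:82774405-82774704, minus strand) and Hk1 (chr10:62340372-62340671, minus strand) are printed 5′ to 3′ on the strand of the gene, because Ldha holds the most matches and the hexokinases had the widest ratios. Capitals mark ACGTG and GCGTG, which read CACGT and CACGC where they lie on the other strand.

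Ldha: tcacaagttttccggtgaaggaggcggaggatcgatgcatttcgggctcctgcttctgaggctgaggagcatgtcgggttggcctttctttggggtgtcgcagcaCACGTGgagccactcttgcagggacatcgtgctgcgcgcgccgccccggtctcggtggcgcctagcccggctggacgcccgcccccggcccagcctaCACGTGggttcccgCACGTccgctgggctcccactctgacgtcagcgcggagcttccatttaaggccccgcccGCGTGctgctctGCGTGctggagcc
Hk2: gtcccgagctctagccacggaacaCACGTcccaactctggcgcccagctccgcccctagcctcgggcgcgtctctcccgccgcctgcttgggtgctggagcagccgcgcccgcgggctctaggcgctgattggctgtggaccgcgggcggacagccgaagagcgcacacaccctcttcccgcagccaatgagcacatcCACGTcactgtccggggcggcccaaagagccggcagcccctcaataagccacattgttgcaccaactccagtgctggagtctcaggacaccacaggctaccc
Hk1: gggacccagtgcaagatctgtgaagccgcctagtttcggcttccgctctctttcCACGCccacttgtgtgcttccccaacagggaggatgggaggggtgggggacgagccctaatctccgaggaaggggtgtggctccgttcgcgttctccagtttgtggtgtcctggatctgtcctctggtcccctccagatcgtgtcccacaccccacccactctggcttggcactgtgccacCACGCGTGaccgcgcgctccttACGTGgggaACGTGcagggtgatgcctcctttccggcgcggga

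In this window Ldha had 5 matches to ACGTG on either strand, 4 of them within 2 copies of CACGTG, and 2 to GCGTG. Hk2 had 2 matches to ACGTG and none to GCGTG, and Hk1 had 2 and 3. Hk1, which was higher in replicate 1, and Hk2, which was lower, thus both held such letters. Other starts of the same genes differed, since a second Hk1 promoter in the table held neither. No binding was measured here, and the presence of the letters was not tied to the ratios.

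Other transporters, the fructose 2,6-bisphosphate enzymes and the carriers of lactate and pyruvate were also measured. Of 12 other glucose transporter genes, 7 had a mean of at least 10 counts. Slc2a8, with the highest mean level per length, had 880 and 755 counts (ratio 0.10), and Slc5a1, the sodium-coupled glucose transporter of the gut, had 447 and 1181 (-1.52, -1.68 to -1.37). Slc2a12, chosen after its values were seen as the one gene of the list beyond 2-fold and higher in replicate 1, had 153 and 7 counts (4.16, 3.25 to 5.67). Even so, these transporters were low beside Slc2a1 and Slc2a3, with at most 21.04 TPM in a library. None of the 5 genes for the enzymes that make and remove fructose 2,6-bisphosphate, the activator of phosphofructokinase, was beyond 2-fold, against 21.4% of all genes, and Tigar, the most abundant, had 3443 and 3949 counts (-0.32). The carriers of lactate and pyruvate were within 2-fold for 6 of 6 measured genes, so that 0 were beyond it, again against 21.4%. These lists are too short to read a difference from that share. Bsg, the chaperone of the lactate carriers, had 10846 and 9580 counts (0.06).

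**Figure D5:**
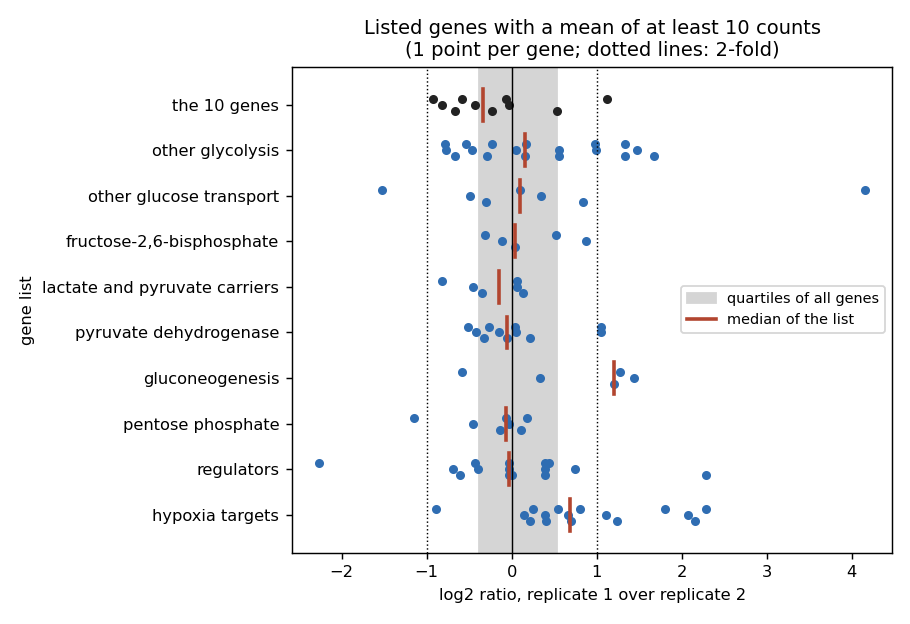
Log2 ratio of replicate 1 over replicate 2 for each gene with a mean count of 10 or more in the lists examined, with the median of each list (red bars) and the quartiles of all genes (grey band). The 10 genes have a median of -0.33 and the hypoxia targets one of 0.68.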

How the data were processed

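Per the study's methods and the labels, reads were cleaned with Trimmomatic, mapped to the mouse build mm10 (GRCm38) with STAR (version 2.4.2a) keeping reads that fit many places, and assigned to Ensembl genes by featureCounts (version 1.4.5-p1), with overlapping regions left out. The authors deposited raw counts for each gene and library, from a reverse-stranded protocol. How reads with several alignments, and the strand, entered the counting is not given in the sources used here. The 2 libraries come from different passages, and biological and technical parts of the spread between them cannot be told apart.

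Replicate 2 was scaled to replicate 1 by a factor of 1.09 from the TMM method of edgeR (version 4.0.16, R 4.3.3). Log2 ratios used a pseudocount of 1, with 95% Clopper-Pearson intervals of the counts, and lists used genes whose mean count was 10 or more. TPM was computed from the exon union of GENCODE M21, which held no entry for 1081 of 43629 identifiers. Stretches of 50 bases were compared between annotated transcripts. CPM were scaled to the total on genes, with a floor of 3 counts.

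The 10 genes, the other lists and the alternatives were chosen with earlier results of these data known. The text names all 10 genes, the other glycolysis genes whose mean count was 10 or more, and from each other list the gene highest per length and those beyond 2-fold whose mean count was 100 or more, besides markers and Dicer1. Some genes behind the counts of lists are not reported here by name. Beyond 2-fold is a description, since a group of 2 libraries with no control allowed no test. The steps were tested on simulated data. Alternatives were total and raw counts, DESeq2 size factors (version 1.42.0), a pseudocount of 0.1, other count minimums, folds of 1.5 and 4, other lengths, and each library alone.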

Additional observations from a re-analysis of the deposited data

How the results depend on the processing

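There were 297 alternative values for 52 results. Of these, 202 moved by less than their error or within 1.5 times the count, 88 moved further and 7 were counted as changing sign. Medians near 0 in the main setting, and that of all genes, were left out of the sign count, although several changed sign. With total counts, pyruvate dehydrogenase went from -0.05 to 0.07, pentose phosphate from -0.07 to 0.05 and regulators from -0.03 to 0.08. Other glucose transporters went from 0.10 to -0.71 at a minimum mean of 100 counts. For levels and shares the error was the SD of the 2 libraries. Values from a single library thus always count among the 202, by construction, and are no check. With total or raw counts the ratios of Pfkl (0.052 and 0.057) and Aldoa (0.087 and 0.092) turned positive, and the median of the 10 genes was -0.22 and -0.21, by construction, since the median of all genes rose by 0.12 and 0.12. Without Eno1 that median was -0.24. The share of genes higher in replicate 1 among those beyond 2-fold was 66.6%, and 73.1% with total counts. The median of the other glycolysis genes turned to -0.23 with a minimum mean of 1000 counts, and the cause was not tested. That of the lactate and pyruvate carriers, -0.15 in the main setting, was 0.057 without a minimum and 0.057 at a minimum of 100. Both values are the ratio of Bsg, the middle gene of the list in these settings. Slc16a8 (3 and 0 counts) enters without a minimum, and Slc16a7 (10 and 12 counts) leaves at 100.

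Beyond 1.5-fold there were 5 of the 10 genes, against 39.6% of all genes and 22.3% of the highly counted ones. Beyond 4-fold there were 0, against 5.71% and 0.784%. Over all genes, 3803 beyond 2-fold became 7938 without a minimum count, 1827 at 100 and 502 at 1000, as more or fewer genes were taken. With the genes of the main setting, 7045 were beyond 1.5-fold and 1016 beyond 4-fold. The summed TPM of the 10 genes, 3833 on average, was 5728 with the longest transcript and 5889 without length, and 3392 to 4275 in single libraries. Without length, the mean share of the step was 69.6% for Slc2a3, 64.8% for Pfkp, 44.9% for Eno1 and 84.0% for Ldha, and with the longest transcript 41.8% for Eno1. Single libraries gave 46.2 to 59.4% for Slc2a3, 76.5 to 93.1% for Hk2, 36.2 to 47.2% for Pfkp, 96.9 to 98.8% for Aldoa, 21.4 to 22.9% for Eno1, 99.79 to 99.96% for Pkm and 64.0 to 79.4% for Ldha. The minimum of 1000 counts, the sum of Eno1 and Eno1b and the median without Eno1 were added after seeing the data. No paired analysis was possible because there was 1 group. Counting error was small at this depth, and the limits are the absence of control libraries and the 2 libraries that differ in passage.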

Other observations

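Routes that branch from glycolysis or run against it were also looked at in the Dicer_KO libraries. Of 7 gluconeogenesis genes, 5 had a mean count of 10 or more and 3 were beyond 2-fold and higher in replicate 1, against 14.2% of all genes. Pck2, the mitochondrial phosphoenolpyruvate carboxykinase, had 12134 counts in replicate 1 and 4116 in replicate 2, or 109 and 38.6 TPM, with a log2 ratio of 1.44 (95% counting interval 1.39 to 1.49). G6pc3, a glucose 6-phosphatase, had 628 and 238 counts (1.27, 1.06 to 1.499), and Fbp1, the fructose bisphosphatase of liver, had 555 and 221 (1.203, 0.98 to 1.44). The liver genes G6pc (0 and 0 counts) and Pck1 (3 and 4 counts) were near or at 0, unlike G6pc3 and Pck2, genes for the same reactions.

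Among 11 genes of the pyruvate dehydrogenase complex and its regulators, Pdk2 and Pdk4, kinases that switch the complex off, were beyond 2-fold and higher in replicate 1, 2 of 11 genes against 14.2% of all genes. Pdk4 had 1686 and 750 counts (1.05, 0.92 to 1.17) and Pdk2 had 581 and 257 (1.05, 0.84 to 1.27). The more abundant kinases differed less, with ratios of 0.22 for Pdk1 (8148 and 6435 counts) and -0.33 for Pdk3 (1934 and 2227), which were added after their values were seen. Pdha1, the subunit they act on and the highest of the list per length, had 13296 and 16393 counts (-0.42, -0.46 to -0.39). In the pentose phosphate pathway, Rpe, the ribulose phosphate epimerase, was the 1 of 7 genes beyond 2-fold, against 21.4% of all genes, with 3295 and 6734 counts (-1.15, -1.21 to -1.09), and Taldo1, the transaldolase with the highest mean level per length, had 9617 and 9022 (-0.03).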
